A study of Mus musculus with 96 samples.

Results

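The 36 genes described here encode aminoacyl-tRNA synthetases. They were taken by symbol from the 24057 genes of the deposited table, and comprise 20 genes for enzymes of the cytosol and 16 genes, with symbols ending in ars2, for enzymes of the mitochondrion. Kars and Gars make proteins for both compartments and were counted with the cytosolic genes. The cells were EL4, a C57BL/6 mouse T lymphoma line, infected with viral particles carrying a short hairpin RNA (shRNA) against luciferase (genotype wild type, WT) or against CTCF, the chromatin protein that binds insulator sites (CTCF-KD). Single cells were captured on the Fluidigm C1 system, 24 from each of 4 cultures named WT 1, WT 2, CTCF-KD 1 and CTCF-KD 2, where 1 and 2 are the initial experiment and the second experiment. The infected cells were not described as single clones, each culture was captured as a unit, and all cells carried a hairpin. The values are TPM, a measure of transcript abundance that is adjusted for gene length, so that levels can be compared between genes. Cells of a culture are not independent, so comparisons were made over cultures, with 2 per condition.

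An aminoacyl-tRNA synthetase joins an amino acid to its matching tRNA, the step that fixes the genetic code before the ribosome. Most cytosolic and mitochondrial enzymes are made from separate nuclear genes, and the mitochondrial enzymes serve the small set of proteins encoded by mitochondrial DNA. Several cytosolic enzymes sit together in the multisynthetase complex, others work alone, and many cytosolic synthetase genes are targets of ATF4, the transcription factor of the integrated stress response, which is induced when amino acids or charged tRNA run short.

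In the 95 cells with at least 3000 genes above 0 (1 WT 2 cell was left out), whole reads recovered from the TPM values numbered 41591 to 405404 per cell, with a median of 131098 in CTCF-KD 2 and medians of 230477 to 247586 in the other cultures. Median counts of genes detected in a cell were 4771 in WT 1, 4635 in WT 2, 6172.5 in CTCF-KD 1 and 5656 in CTCF-KD 2. The targeted gene, Ctcf, had a mean of 60.3 TPM in WT 1 and 15.96 TPM in CTCF-KD 1, and of 37.1 TPM in WT 2 and 44.9 TPM in the culture labelled CTCF-KD 2. In experiment 2 the mean was thus not lower in CTCF-KD, but the SDs over cells were 45.5 TPM in WT 2 and 50.0 TPM in CTCF-KD 2. These means alone do not decide whether Ctcf differed there. By the study's methods, cell populations with an efficient knockdown by RT-qPCR and Western blotting were sequenced. Every direction given below for experiment 2 rests on the label: CTCF-KD 2 stands for the culture labelled so. All 8 T-cell markers examined (Cd3e, Cd3g, Cd3d, Cd247, Thy1, Lck, Cd5 and Ptprc) had reads, with a summed level of 5813 to 8311 TPM per culture, while the marker lists for B cells, myeloid cells, erythroid cells and fibroblast or epithelial cells summed to at most 4.13, 3.60, 0 and 1.44 TPM.

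Cytosolic synthetase genes were far more abundant than mitochondrial synthetase genes. As the mean TPM of the 4 cultures, the cytosolic genes ranged from 46.99 (Mars, for methionine) to 631 (Kars, for lysine) with a median of 134, and the mitochondrial genes from 2.24 (Ears2, for glutamate) to 77.1 (Tars2, for threonine) with a median of 18.4. Of 13 pairs of genes with matching symbols (as Nars and Nars2), the cytosolic gene had the higher mean TPM in all 13. The ratio ran from 1.17 for Mars and Mars2 to 47.3 for Nars and Nars2, the asparagine enzymes. Only Tars2 and Rars2 (arginine) lay above the lowest cytosolic gene. After methionine, the closest pairs were Tars (129 TPM) with Tars2 (77.1 TPM) and Lars (62.9 TPM) with Lars2 (37.5 TPM), for threonine and leucine.

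**Figure D1:**
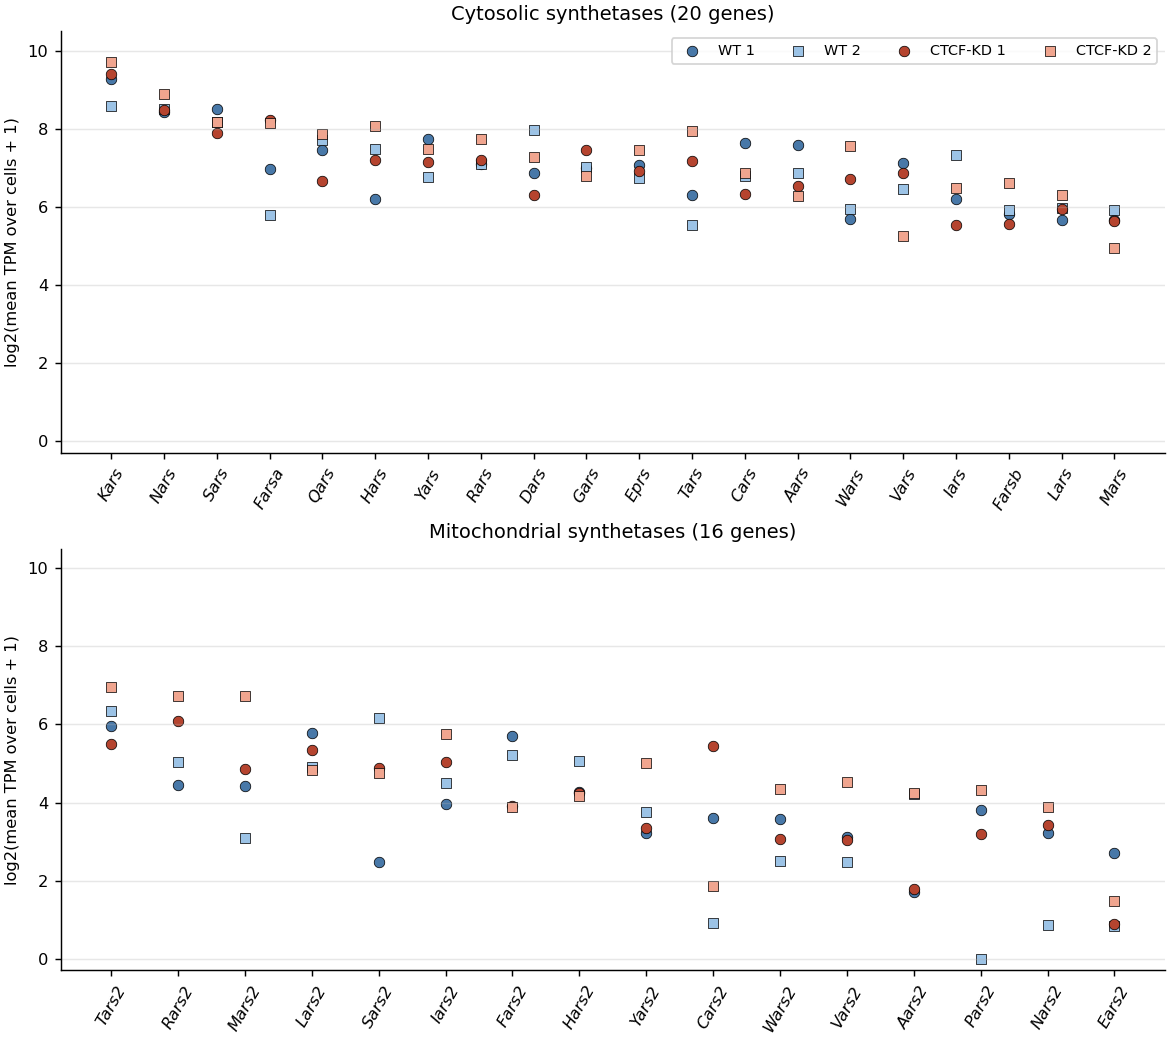
Level of each of the 36 synthetase genes, as log2(mean TPM over the cells of a culture + 1), with 1 point per culture and genes ordered by mean TPM within the cytosolic (upper panel) and mitochondrial (lower panel) sets. The cytosolic genes sit higher, from 46.99 to 631 TPM as the mean of the cultures against 2.24 to 77.1 TPM, and Pars2 in WT 2 lies at 0.

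The 3 most abundant cytosolic genes were Kars, Nars and Sars, the enzymes for lysine, asparagine and serine. Kars had 618 and 384 TPM in WT 1 and WT 2 and 681 and 842 TPM in CTCF-KD 1 and CTCF-KD 2, so that both CTCF-KD cultures lay above both WT cultures. Nars had 346 and 362 TPM in WT 1 and WT 2 and 358 and 475 TPM in CTCF-KD, and the conditions overlapped. Sars had 363 and 289 TPM in WT 1 and WT 2 and 237 and 286 TPM in CTCF-KD, with the upper CTCF-KD value next to the lower WT value. Among the mitochondrial genes Tars2 was highest, with 60.8 and 80.1 TPM in WT and 44.4 and 123 TPM in CTCF-KD. Tars2 was the lowest of the 4 in CTCF-KD 1 and the highest in the culture labelled CTCF-KD 2.

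The design asks whether the level of a gene differs between WT and CTCF-KD cells. No synthetase gene passed the test on culture means. limma on log2(mean TPM + 1) of the 4 cultures called 0 of 36 synthetase genes and 0 of all 11980 genes that exceeded a log2(TPM + 1) of 1 in 2 or more cells (0% called at a Benjamini-Hochberg adjusted p under 0.05), and all 36 synthetase genes had entered the fit. At an unadjusted p under 0.05, 4 synthetase genes were higher in CTCF-KD (Farsa, Tars, Rars2 and Wars), beside 4.79% of all genes, and 1 was lower (Fars2), beside 2.82% of all genes. Without the culture labelled CTCF-KD 2, 0 synthetase genes had an unadjusted p under 0.05 in limma. An exact permutation test of 2 cultures against 2 could not give a p below 0.333 for any gene.

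The direction of the difference was counted in each experiment. The CTCF-KD culture lay above the WT culture of its own experiment in both experiments for 15 of 36 genes (8 cytosolic and 7 mitochondrial), beside 30.1% of all genes, and below it in both for 9 genes (6 cytosolic and 3 mitochondrial), beside 26.7%. Both CTCF-KD cultures lay above both WT cultures for 9 genes, beside 19.9% of all genes, namely Farsa, Kars, Rars, Tars and Wars of the cytosol and Iars2, Mars2, Nars2 and Rars2 of the mitochondrion. They lay below both for 5 genes, beside 16.9%, namely Aars, Mars, Sars, Fars2 and Hars2. With CTCF-KD 1 alone against both WT cultures, 11 genes lay above, beside 31.3% of all genes, and 11 below, beside 32.3%. The median log2 difference, CTCF-KD minus WT, was 0.25 over the 36 genes, 0.17 over the cytosolic and 0.67 over the mitochondrial genes, against 0.04 over all genes tested. The order of the 2 compartments depended on the averaging. With log2(TPM + 1) averaged over cells, the medians were 0.84 over the cytosolic and 0.58 over the mitochondrial genes, against 0.23 over all genes. By experiment, the cytosolic and mitochondrial medians were -0.09 and 0.04 in experiment 1 and 0.36 and 1.09 in experiment 2. In experiment 1 the median of the 36 genes was -0.01, and in experiment 2 it was 0.63, so the positive median came from experiment 2, in which mean Ctcf was not lower in CTCF-KD. Without the culture labelled CTCF-KD 2 it was 0.022.

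**Figure D2:**
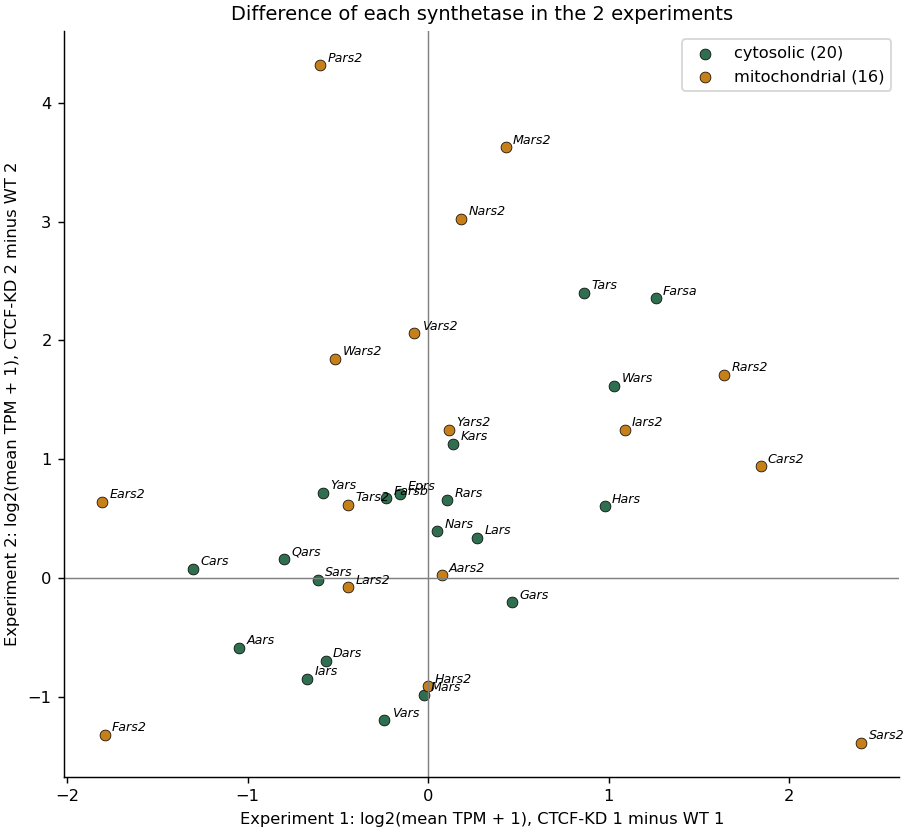
Log2 difference of each synthetase gene, CTCF-KD minus WT on log2(mean TPM + 1), in experiment 1 (horizontal axis) and experiment 2 (vertical axis), with 20 cytosolic and 16 mitochondrial genes. Farsa, Tars, Wars, Rars2 and Iars2 lie well inside the upper right quadrant and Fars2 and Aars inside the lower left, while Pars2 and Sars2 have opposite signs in the 2 experiments.

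Farsa and Farsb encode the alpha and beta subunits of a single enzyme, cytosolic phenylalanyl-tRNA synthetase, which works as a tetramer with equal numbers of each. Farsa lies on chromosome 8 of GRCm38 (84856989 to 84869257, plus strand, in GENCODE M21) and Farsb on chromosome 1 (78417975 to 78488897, minus strand). Farsa had mean levels of 124 TPM in WT 1 and 54.6 TPM in WT 2, and of 298 TPM in CTCF-KD 1 and 283 TPM in CTCF-KD 2. Both CTCF-KD cultures lay above both WT cultures, and the mean was 2.41-fold higher in experiment 1 and 5.18-fold higher in experiment 2. The log2 difference was 1.81 (SE 0.46, limma adjusted p = 0.585), the most extreme statistic of the 36 genes. As RPM of recovered reads, Farsa (with 95% Poisson intervals, exact, that cover counting alone) was at 107 (99.2 to 116) in WT 1, 44.1 (38.7 to 49.97) in WT 2, 303 (289 to 318) in CTCF-KD 1 and 275 (257 to 293) in CTCF-KD 2. These intervals do not overlap between the conditions, while WT 1 and WT 2 also differ beyond counting error.

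In mean TPM, Farsb did not share this pattern. It had 55.05 and 60.2 TPM in WT 1 and WT 2 and 46.7 and 96.4 TPM in CTCF-KD 1 and CTCF-KD 2, so that the CTCF-KD cultures lay on either side of the WT cultures (log2 difference 0.22, SE 0.50, limma adjusted p = 0.944). With log2(TPM + 1) averaged over cells, Farsb was at 3.11 and 3.32 in WT and at 4.23 and 5.35 in CTCF-KD, without overlap. On that scale its log2 difference was 1.58 (limma adjusted p = 0.228). Farsb reads were found in 14 of 24 and 13 of 23 WT cells and in 20 of 24 cells of each CTCF-KD culture. The ratio of Farsa to Farsb in TPM was 2.25 in WT 1, 0.908 in WT 2, 6.38 in CTCF-KD 1 and 2.94 in CTCF-KD 2, higher in the CTCF-KD culture of each experiment. Farsa reads were found in 50.0% of WT 1 cells (exact Clopper-Pearson 95% interval 29.1% to 70.9%, for counting of cells only) and in 47.8% of WT 2 cells (26.8% to 69.4%). In each CTCF-KD culture the share was 91.7% (73.003% to 98.97%). Reads of both subunits were found in 8 of 24 WT 1 cells, 8 of 23 WT 2 cells, 19 of 24 CTCF-KD 1 cells and 19 of 24 CTCF-KD 2 cells. Cells with neither numbered 6 and 7 in the WT cultures and 1 in each CTCF-KD culture. The CTCF-KD cells also had more genes detected in general, and the part of this in the joint detection was not tested. Of the exon bases of Farsb, 9.47% are shared with Sgpp2 on the opposite strand, and Farsa shares none with another listed gene.

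**Figure D3:**
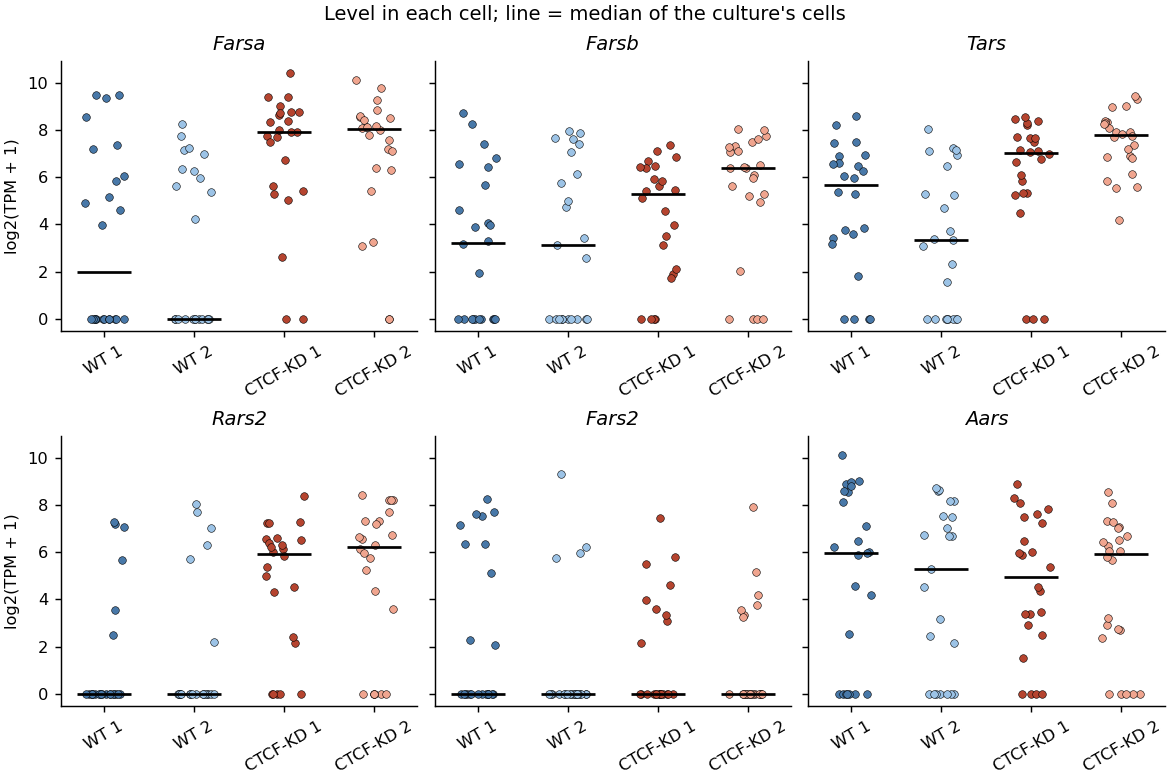
Level of 6 synthetase genes in each of the 95 cells, as log2(TPM + 1), by culture, with a line at the median of the culture. Farsa and Rars2 have medians of 0 to 7.30 TPM in WT and of 59.99 to 265 TPM in CTCF-KD, Fars2 has a median of 0 in every culture, and the points of Aars overlap widely.

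The 120 bases before the RefSeq start sites of Farsa and Farsb (build GRCm38.p6, gene strand, 5′ to 3′) are shown because subunits of the same enzyme differed in level. For Farsa they lie at chr8:84856866-84856985 on the plus strand and for Farsb at chr1:78488898-78489017 on the minus strand. The capitals mark an E-box, the letters CACGTG, which is the same on both strands.
Farsa: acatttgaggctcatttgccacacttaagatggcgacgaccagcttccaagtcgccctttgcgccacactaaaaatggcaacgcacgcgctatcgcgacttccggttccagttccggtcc
Farsb: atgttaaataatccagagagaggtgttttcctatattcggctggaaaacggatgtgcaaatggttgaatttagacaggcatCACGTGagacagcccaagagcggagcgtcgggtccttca
The Farsb stretch holds 1 E-box, 39 bases before the start site, and the Farsa stretch holds none. In RefSeq windows of 300 bases (250 before to 50 after the start), which were matched for 26 of the 36 genes, the E-box was found in 5 genes, among them Farsb, Ears2, Iars and Tars, or 19.2% of those 26, against 8.09% of 27025 gene symbols with a window.

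Tars, the threonine enzyme of the cytosol (chromosome 15, 11382301 to 11399665, minus strand), had 78.5 and 45.7 TPM in WT 1 and WT 2 and 144 and 246 TPM in CTCF-KD 1 and CTCF-KD 2. Both CTCF-KD cultures lay above both WT cultures (log2 difference 1.63, SE 0.46, limma adjusted p = 0.585). Wars, the tryptophan enzyme, which is also known as an interferon-induced gene, had 50.5 and 60.4 TPM in WT and 104 and 187 TPM in CTCF-KD, again without overlap (log2 difference 1.32, SE 0.44, limma adjusted p = 0.610). Wars had reads in 11 of 24 and 7 of 23 WT cells and in 16 of 24 and 21 of 24 CTCF-KD cells. Rars, the arginine enzyme of the complex, had 136 TPM in each WT culture and 147 and 214 TPM in CTCF-KD, a gap of less than the difference between the CTCF-KD cultures.

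Among the mitochondrial genes, Rars2 (arginine) stood closest to this pattern. Rars2 (chromosome 4, 34614957 to 34660167, plus strand) had 20.9 and 31.6 TPM in WT 1 and WT 2 and 67.2 and 105 TPM in CTCF-KD 1 and CTCF-KD 2, a 3.22-fold and a 3.34-fold higher mean in experiments 1 and 2 (log2 difference 1.67, SE 0.51, limma adjusted p = 0.585). It had reads in 6 of 24 WT 1 cells, 6 of 23 WT 2 cells, 19 of 24 CTCF-KD 1 cells and 18 of 24 CTCF-KD 2 cells. Mars2 (methionine) had 20.7 and 7.54 TPM in WT and 28.2 and 104 TPM in CTCF-KD, with a log2 difference of 0.43 in experiment 1 and 3.63 in experiment 2 (limma adjusted p = 0.656 over all cultures). Iars2 (isoleucine) had 14.5 and 21.7 TPM in WT and 32.03 and 52.8 TPM in CTCF-KD, without overlap, but 22.9% of its exon bases are shared with Rab3gap2 on the opposite strand and the strand used in counting was not given in the sources used here.

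Whether Farsa passed the test depended on how the cells of a culture were averaged. When each culture was given the mean over its cells of log2(TPM + 1), which weighs the number of cells with reads more than the mean TPM does, limma called 44 genes higher (0.367% of the genes tested) and 2 lower (0.0167%), and Farsa was among those higher (log2 difference 3.71, adjusted p = 0.0468). Over all alternatives its adjusted p ran from 0.0468 to 0.861. Rars2 missed the threshold on that scale (3.31, limma adjusted p = 0.0501). On that scale the median of all genes tested lay at 0.23.

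Fars2, the mitochondrial phenylalanine enzyme, had the most extreme statistic in the other direction. The gene spans 36117412 to 36726280 of chromosome 13 on the plus strand. It had 51.6 and 36.1 TPM in WT 1 and WT 2 and 14.2 and 13.8 TPM in CTCF-KD 1 and CTCF-KD 2, without overlap (log2 difference -1.56, SE 0.59, limma adjusted p = 0.623). These means rest on few cells. Reads were found in 10 of 24, 4 of 23, 9 of 24 and 7 of 24 cells in the same order, the median cell was at 0 in all 4 cultures, and a single cell held 77.3% of the summed TPM in WT 2 and 71.8% in CTCF-KD 2. In mean TPM, Fars2 and Farsa, which charge the same amino acid in different compartments, thus differed in sign in both experiments. With log2(TPM + 1) averaged over cells, Fars2 was at 2.52 and 1.19 in WT and at 1.64 and 1.30 in CTCF-KD (log2 difference -0.38). On that scale Fars2 was higher in CTCF-KD in experiment 2, as Farsa was.

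Aars (alanine), Cars (cysteine) and Iars (isoleucine) had the next lowest statistics, all cytosolic. Aars had 192 and 115 TPM in WT 1 and WT 2 and 92.3 and 76.4 TPM in CTCF-KD 1 and CTCF-KD 2, without overlap (log2 difference -0.82, SE 0.41, limma adjusted p = 0.700), and 14.3% of its exon bases are shared with Exosc6 on the same strand. Cars had 199 and 111 TPM in WT and 79.8 and 117 TPM in CTCF-KD, and its signs differed between the experiments. Iars had 72.4 and 159 TPM in WT and 45.1 and 87.9 TPM in CTCF-KD, below in each experiment but with overlap between the conditions. Their mitochondrial partners had differences of the opposite sign, with 0.05 for Aars2, 1.39 for Cars2 and 1.17 for Iars2, but the signs of Aars2 and Cars2 turned when a culture was left out.

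Of the 13 pairs with matching symbols, 8 had log2 differences of opposite sign, namely those for alanine, cysteine, histidine, isoleucine, leucine, methionine, serine and valine. Many of these signs were not stable. Leaving out a culture turned the sign of Vars, Aars2, Cars2, Lars2 and Sars2 among them, and of Tars2, Yars and Yars2 in the other pairs. The 5 pairs with the same sign (Nars, Rars, Tars, Wars and Yars with their partners) were all positive. Phenylalanine, glutamate and proline also have genes in each compartment but are not in this count, since Farsa and Farsb share Fars2 as a counterpart, and Eprs, with a log2 difference of 0.28, serves the amino acids of both Ears2 (-0.58) and Pars2 (1.86). For serine, Sars (-0.31) and Sars2 (0.51) differed in sign over the 4 cultures, but Sars2 had 4.58 and 70.2 TPM in WT 1 and WT 2 and 28.5 and 26.2 TPM in CTCF-KD, a spread between the WT cultures larger than any difference from them. Pars2 (proline) had 12.9 TPM in WT 1, 8.21 TPM in CTCF-KD 1 and 18.9 TPM in CTCF-KD 2, and 0 reads in WT 2, which allows up to 0.546 RPM (3 reads of the culture's total). Hars and Hars2 lie head to head and share 195 exon bases on opposite strands, which are 7.97% of those of Hars and 4.56% of those of Hars2. Reads from the overlap cannot be assigned without the strand. In all, 9 of the 36 genes share exon bases with another listed gene, and 2 of them (Aars and Iars2) share more than 10%.

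The cytosolic genes were split by structure. The 8 enzymes of the multisynthetase complex (Dars, Eprs, Iars, Kars, Lars, Mars, Qars and Rars) had a median log2 difference of -0.02, with 4 positive and 4 negative, while the 12 free enzymes had a median of 0.17, with 8 positive and 4 negative. The complex and free medians were alike in experiment 1, at -0.09 each, and were 0.25 and 0.50 in experiment 2. With log2(TPM + 1) averaged over cells they were 0.37 and 1.06. Both CTCF-KD cultures lay above both WT cultures for 2 of the 8 complex genes (Kars and Rars) and for 3 of the 12 free genes (Farsa, Tars and Wars), beside 19.9% of all genes. By fold of the catalytic domain, the 9 class I genes had a median of -0.32 and the 10 class II genes of 0.22, with Eprs, a fusion that holds a domain of each class, counted in neither. The class medians were -0.24 and 0.09 in experiment 1, but both positive in experiment 2, at 0.15 and 0.50. With log2(TPM + 1) averaged over cells both were positive as well, at 0.51 and 1.42. Per culture, the summed level of the complex genes was 1350 and 1367 TPM in WT 1 and WT 2 and 1280 and 1812 TPM in CTCF-KD 1 and CTCF-KD 2, so the difference between the CTCF-KD cultures exceeded their distance from the WT cultures.

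In the 11 synthetase genes known as targets of the integrated stress response (Aars, Cars, Eprs, Gars, Iars, Mars, Nars, Sars, Tars, Wars and Yars), the median log2 difference was 0.07, with 6 positive and 5 negative. Tars and Wars had CTCF-KD cultures above both WT cultures, and Aars, Mars and Sars had them below. Thus the list held members at both ends of the order. The C/EBP-ATF element, searched as TGATGNAA on both strands, is a sequence through which ATF4 is known to act, and it was found in the window of 5 of the 7 genes of this list with a RefSeq window, among them Gars, Iars, Tars and Yars. Over all 26 synthetase genes with a window the share was 19.2%, against 4.51% of 27025 gene symbols, and it was found in 0 of 14 mitochondrial genes. The 30 bases around the match in these 4 genes are shown because they differ in direction, with the element in capitals as read along the gene strand.
Gars: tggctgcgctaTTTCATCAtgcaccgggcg
Iars: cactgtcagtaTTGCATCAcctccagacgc
Tars: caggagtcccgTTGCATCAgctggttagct
Yars: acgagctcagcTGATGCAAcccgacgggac
These stretches of build GRCm38.p6 lie at chr6:55037960-55037989 (Gars), chr13:49682126-49682155 (Iars) and chr4:129189895-129189924 (Yars) on the plus strand and at chr15:11399655-11399684 (Tars) on the minus strand. The match in Tars lies 15 bases before the start site and that in Gars 30 bases before it. Tars, with this element, had a log2 difference of 1.63, Gars and Yars of 0.13 and 0.07, and Iars of -0.76. Gars, the glycine enzyme, had 126 and 128 TPM in WT and 174 and 111 TPM in CTCF-KD, on either side of the WT cultures.

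The summed levels put the 2 compartments side by side. The summed cytosolic level was 3309 TPM in WT 1, 2965 TPM in WT 2, 3219 TPM in CTCF-KD 1 and 4175 TPM in CTCF-KD 2, as means over cells with SDs of 1472, 1193, 1061 and 1121. The summed mitochondrial level was 313, 351, 360 and 598 TPM in the same order, with SDs of 177, 256, 201 and 356 over cells. On the log2 scale, CTCF-KD minus WT was -0.04 and 0.49 in experiments 1 and 2 for the cytosolic sum and 0.20 and 0.77 for the mitochondrial sum. Over the cultures without the culture labelled CTCF-KD 2 the cytosolic difference was 0.039 and the mitochondrial difference 0.12. The ratio of the cytosolic to the mitochondrial sum was 10.6 in WT 1, 8.45 in WT 2, 8.94 in CTCF-KD 1 and 6.98 in CTCF-KD 2. The ratio was lower in the CTCF-KD culture of each experiment, by a mean log2 difference of -0.26 (SD 0.02 over 2 experiments), but WT 2 lay below CTCF-KD 1, so the conditions overlapped. Without Kars and Gars the cytosolic difference was 0.14 instead of 0.23, as the mean of the 2 experiments. Within a culture the cytosolic and mitochondrial sums of a cell were weakly related, with Pearson's r of 0.08, 0.42, 0.09 and -0.19 and Spearman's rho of 0.12, 0.37, 0.07 and 0.08 over 23 or 24 cells that share library and composition, in the order WT 1, WT 2, CTCF-KD 1 and CTCF-KD 2.

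Synthetase reads were found in more cells of the CTCF-KD cultures. With each cell thinned to 80000 reads, which left out 1 CTCF-KD 2 cell, a median of 15, 13, 17.5 and 18 of the 20 cytosolic genes was detected per cell in WT 1, WT 2, CTCF-KD 1 and CTCF-KD 2. Without thinning these medians were 16, 14, 18 and 18.5. For the 16 mitochondrial genes the medians were 4, 4, 6.5 and 6 after thinning and 5, 4, 8 and 7 before. Thinned cells with reads were more frequent in both CTCF-KD cultures than in both WT cultures for 24 of 36 genes (13 cytosolic and 11 mitochondrial), beside 38.6% of all genes, and less frequent for 1 gene, Aars2, beside 4.67%. The median difference was 12.9 percentage points over the 36 genes and 6.34 over all genes tested. Without the culture labelled CTCF-KD 2, and without thinning, it was 13.2 points over the 36 genes. The shares after thinning went from 20.8% and 21.7% to 70.8% and 78.3% for Rars2 and from 50.0% and 43.5% to 91.7% and 91.3% for Farsa. For Tars2 they went from 62.5% and 52.2% to 70.8% and 82.6%, although its mean TPM had different signs in the 2 experiments. Within cultures, the number of cytosolic genes detected followed the number of all genes detected, with Pearson's r of 0.57 to 0.70 over 23 or 24 cells, and the mitochondrial number likewise, with 0.46 to 0.61. The part of genes detected per cell in the levels above was not tested.

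**Figure D4:**
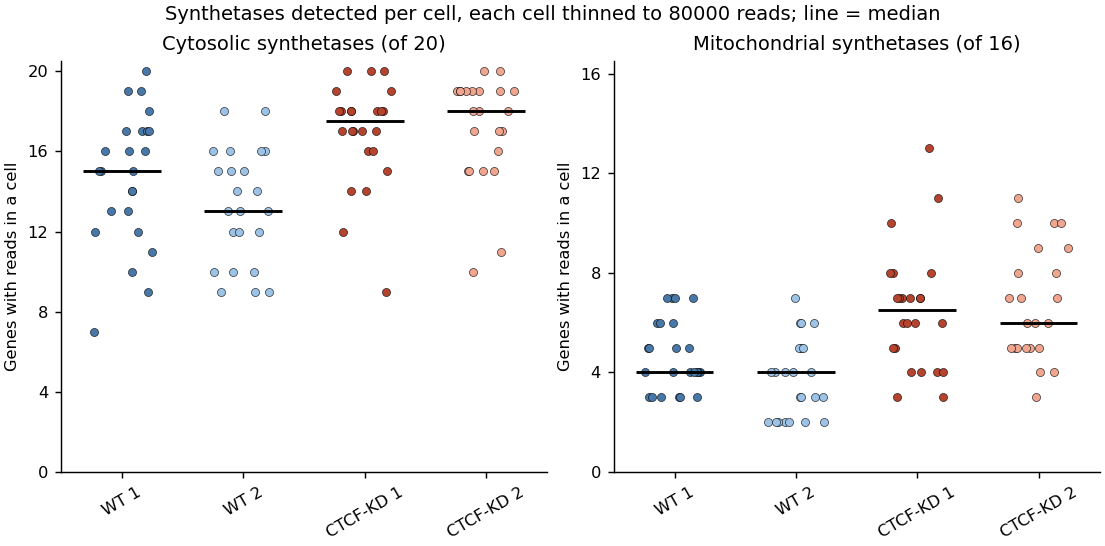
Number of cytosolic (of 20) and mitochondrial (of 16) synthetase genes with reads in each cell, after thinning to 80000 reads, by culture, with a line at the median. The medians are 15, 13, 17.5 and 18 for the cytosolic and 4, 4, 6.5 and 6 for the mitochondrial genes, and the cells of the cultures overlap.

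Cell-to-cell variation was the main measure of the study. The coefficient of variation (CV) was the SD divided by the mean of log2(TPM + 1) in the pooled cells of each condition, and a call was made where the difference in CV departed by over 1 SD from its mean over 7843 genes with a mean log2(TPM + 1) above 1. Of the 36 synthetase genes 32 entered, all but Aars2, Cars2, Ears2 and Pars2. By this rule 8 of them were called lower in CTCF-KD cells (Farsa, Wars, Iars2, Mars2, Nars2, Rars2, Sars2 and Wars2), beside 11.3% of all genes, and 1 was called higher (Mars), beside 7.68%. In CTCF-KD cells the CV was lower for 30 of the 32 genes, as it was for 6394 of the 7843 genes. The largest drop was in Rars2, from 1.85 to 0.616, and it was present in each experiment, with 1.90 in WT 1 and 1.83 in WT 2 against 0.605 in CTCF-KD 1 and 0.634 in CTCF-KD 2. Farsa went from 1.09 to 0.391, with 1.10 in each WT culture and 0.396 and 0.395 in the CTCF-KD cultures. For Mars the CV was 0.946 and 0.968 in the WT cultures, 0.797 in CTCF-KD 1 and 1.57 in the culture labelled CTCF-KD 2, where 8 of 24 cells had reads. Without the cells of the culture labelled CTCF-KD 2, 5 genes were called lower, beside 12.4% of all genes, and 0 higher, beside 8.56%. No test was made, since cells are not replicates.

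**Figure D5:**
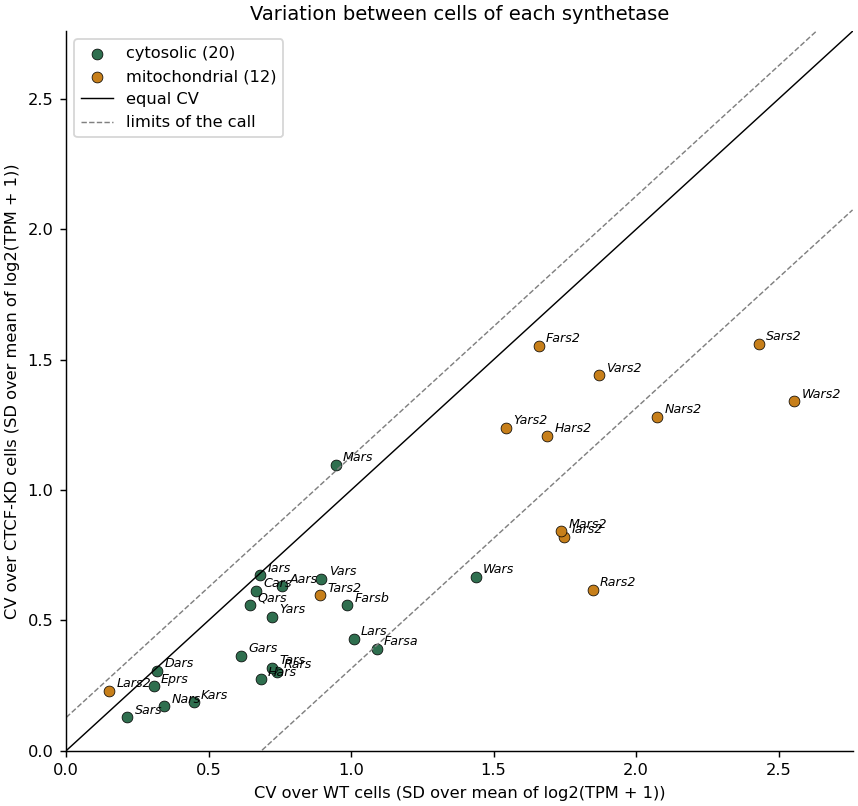
CV of 32 synthetase genes over WT cells (horizontal axis) and CTCF-KD cells (vertical axis), with a solid line at equal CV and dashed lines at the limits of the call, -0.685 and 0.127. Rars2 (1.85 and 0.616), Farsa (1.09 and 0.391) and 6 other genes lie below the lower limit, and Mars and Lars2 lie above the line of equality.

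The CV of log values depends on the mean level, and the mitochondrial genes had a median CV of 1.74 in WT cells against 0.702 for the cytosolic genes. When the CV was set against the running median of 201 genes of like mean level, the median difference of the 32 genes was -0.02, against -0.30 for the plain CV. As the median of the cytosolic genes, the SD of log2(TPM + 1) itself was 3.15 over WT and 2.47 over CTCF-KD cells. For the mitochondrial genes it was 2.31 and 2.61. For the mitochondrial genes the median SD was thus higher in CTCF-KD cells while the median CV was lower, at 1.22.

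Lars2, the mitochondrial leucine enzyme, was measured in a way unlike the other mitochondrial genes. It had reads in all 95 cells, as had Sars among the cytosolic genes, whereas the next mitochondrial gene had reads in 70 cells and the median of the other 15 was 30 cells. Its level was low, with 54.004 and 29.1 TPM in WT 1 and WT 2 and 39.5 and 27.4 TPM in CTCF-KD 1 and CTCF-KD 2 and 1 to 108 reads per cell. Of 322 genes with reads in every cell, only 2 had a lower mean TPM than Lars2 (37.6), and their median was 602 TPM. Rn45s, the precursor of ribosomal RNA, also had reads in every cell, with 3372 and 2282 TPM in WT and 1882 and 1590.2 TPM in CTCF-KD. The order of the cultures was the same for both genes except for the middle pair, and Pearson's r between their log2(TPM + 1) over the cells of a culture was 0.54, 0.09, 0.21 and 0.58 in WT 1, WT 2, CTCF-KD 1 and CTCF-KD 2. Spearman's rho in the same order was 0.76, 0.02, 0.23 and 0.16. In CTCF-KD 2 a single cell held 43.3% of the summed TPM of Rn45s and a single cell held 37.5% of that of Lars2. With Lars2 left out, the log2 difference of the cytosolic minus the mitochondrial sum was -0.34 instead of -0.26.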

How the data were processed

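Single EL4 cells had been captured on the Fluidigm C1 system and sequenced by the authors, who aligned the reads to GRCm38 with STAR, counted reads per gene and deposited a table of TPM for 96 cells, in which gene length and the total of each cell are accounted for. The samples were assigned to cultures by their titles. From the deposited TPM, whole reads were recovered as the common step of each gene, with 100% of 504524 values above 0 within 0.001 of a whole number. They were used for depth, thinning and RPM, and no molecular identifiers were described, so intervals cover counting error only. The recovery and the limma fit were tested on simulated data. For the limma fit, all simulated cultures were drawn from the same pooled WT cells. They lack the spread between real cultures, so that simulation cannot show how well the fit works on these 4 cultures. Cells with fewer than 3000 genes were left out, and genes had to exceed a log2(TPM + 1) of 1 in 2 or more cells. limma 3.58.1 in R 4.3.3 (eBayes with trend) was fitted to log2(mean TPM + 1) of the 4 cultures over all genes. A pseudocount of 1 understates the difference of low genes.

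The members, the gene lists and the measures were chosen with earlier results of these data known. Full values were given for the targeted gene, for 4 members at each end of the order of limma statistics, for the 3 most abundant of each compartment, for members past the threshold under any setting and for their partners of opposite sign, and elsewhere for the 2 genes of each list with the largest difference. Further genes were named after their values were seen, namely Farsb, Hars, Hars2, Iars2, Lars2, Mars, Pars2, Rars, Gars and Rn45s. The study's methods give the culture number as the initial and the second experiment, so the numbers pair the cultures, and deviations of same-numbered cultures from their condition means had a Pearson's r of 0.275 across 7843 genes. Whether hairpins also differed between the experiments was not settled by the sources used here. The study's methods describe experiment 2 as a repeat of the knockdown, and p-values measure only the spread between these 4 cultures. Alternatives included other pseudocounts, filters, averages over cells, scalings, an experiment block and leaving out each culture. The sequence of 1 promoter is not reported here.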

Additional observations from a re-analysis of the deposited data

How the results depend on the processing

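Of 526 alternative fits of the 36 genes, 503 kept the direction and the side of the threshold, 22 reversed and 1 passed the threshold, and 21 genes were not reversed under any. The count of 503 is not a measure of stability. Alternatives that changed only the filter, the trend or the block left each difference as it was by design, so no sign could turn there. As the main fit called no synthetase, none could lose a call. The count of genes called by limma was 0 under every alternative except the averaging of log2(TPM + 1) over cells, with 46, and there the unadjusted p was under 0.05 for 1989 genes instead of 912. With the experiment as a replicate block it was 0 as well, with 1531 genes at an unadjusted p under 0.05, and this paired fit changed no call of a synthetase. With log2(TPM + 1) averaged over cells, the sign turned for Qars (0.19), Sars (0.042), Vars (0.51), Aars2 (-0.53) and Hars2 (0.53), the synthetases lower in both experiments numbered 4, those with CTCF-KD cultures above both WT cultures 18 and below 1, and on the median over cells the sign turned for Vars (1.82), with 5 lower in both experiments and 2 below. With the median of genes made equal in all cultures, 2 lay below. Shares over all genes were not computed for these counts. With log2(TPM + 1) averaged over cells, 8085 of all 11980 genes tested had a positive difference. The cytosolic minus mitochondrial difference was -0.055 on the median over cells and -0.34 without Lars2, an alternative chosen after seeing the data. The CV was called higher for 4 genes on linear TPM and 0 in experiment 1 alone, and lower for 5 on linear TPM, 3 after removal of the running median and 2 in experiment 1 alone. For these CV counts too, shares over all genes were not computed. The median difference in the share of cells with reads was 12.4 points on all reads, 12.9 after thinning and 10.8 with TPM above 10. The causes were not tested.

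When a culture was left out, the lone culture was assumed to vary like the others. The difference of the cytosolic minus mitochondrial sum then ran from -0.44 (without CTCF-KD 1) to -0.080 (without CTCF-KD 2), with -0.096 without WT 1 and -0.42 without WT 2. Counts of synthetases without overlap grow when fewer cultures are compared. Those with CTCF-KD above WT numbered 11 to 21, with 16 without WT 1, 15 without WT 2 and 21 without CTCF-KD 1, and those below 8 to 11, with 8, 10 and 8 in that order. Among the leave-outs, shares over all genes were computed only without CTCF-KD 2, at 31.3% above and 32.3% below. The other counts, and the CV calls that follow, are thus not results about the synthetases. A CV was called higher in 0 to 1 genes, with 0 without WT 1 and without the culture labelled CTCF-KD 2, and lower in 3 to 7, with 3 without WT 2 and 5 without CTCF-KD 2. The difference in detection ran from 10.4 to 15.9 points. The median difference of the 36 genes ran from 0.02 to 0.52. The sign turned in 13 genes, with ranges of -0.30 to 0.73 for Farsb, -0.20 to 0.45 for Gars, -0.93 to 0.28 for Qars, -1.53 to 0.085 for Vars, -0.42 to 0.55 for Yars, -1.20 to 1.30 for Aars2, -0.41 to 3.19 for Cars2, -1.51 to 0.35 for Ears2, -0.70 to 0.17 for Lars2, -0.041 to 3.76 for Pars2, -1.33 to 2.34 for Sars2, -0.64 to 0.81 for Tars2 and -0.16 to 1.52 for Yars2. Farsa ran from 1.22 to 2.39, Rars2 from 1.35 to 1.99 and Fars2 from -1.81 to -1.31. Depth was lowest in CTCF-KD 2.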

Other observations

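Partners of the synthetases in translation were followed in lists of their own, with the same limma fit, in which 0 genes of these lists passed an adjusted p of 0.05. Among 11 scaffolds and tRNA helpers the median log2 difference was 0.56, with 8 positive. Eef1e1, a scaffold of the multisynthetase complex, had 54.1 and 63.6 TPM in WT 1 and WT 2 and 139 and 277 TPM in CTCF-KD 1 and CTCF-KD 2 (1.73, SE 0.45, limma adjusted p = 0.585). Ptrh2, a peptidyl-tRNA hydrolase, had 18.8 and 11.4 TPM in WT and 47.5 and 55.7 TPM in CTCF-KD (1.74, SE 0.58, limma adjusted p = 0.610). Aimp2, another scaffold of the complex, named after its values were seen, had 118 and 117 TPM in WT and 240 and 172 TPM in CTCF-KD.

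The 9 genes of mitochondrial translation had a median log2 difference of 0.74, with 8 positive, beside 0.67 for the mitochondrial synthetases. The 2 sets differed within each experiment, with 0.89 against 0.04 in experiment 1 and 0.57 against 1.09 in experiment 2. With log2(TPM + 1) averaged over cells, the medians were 1.43 against 0.58. The elongation factor Tsfm had 33.6 and 50.3 TPM in WT and 100.3 and 80.2 TPM in CTCF-KD, and the initiation factor Mtif3 had 27.5 and 24.5 TPM in WT and 62.01 and 52.4 TPM in CTCF-KD. Both had CTCF-KD cultures above both WT cultures and differences of 1.11. The 5 cytosolic elongation genes had a median of -0.21, with 1 positive. Eef1a1, the main carrier of charged tRNA to the ribosome, had 5553 and 6155 TPM in WT and 4001 and 4392 TPM in CTCF-KD (-0.48), whereas Eef1d, of the exchange complex, had 213 and 206 TPM against 325 and 260 TPM (0.47).

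The 16 genes of the integrated stress response had a median log2 difference of -0.86, with 11 negative. Their median was -0.69 in experiment 1, -0.46 in experiment 2 and -0.40 with log2(TPM + 1) averaged over cells. Both CTCF-KD cultures lay below both WT cultures for 6 of these 16 genes, beside 16.9% of all genes. Chac1, a glutathione-degrading enzyme induced by ATF4, had 235 and 54.4 TPM in WT 1 and WT 2 and 21.6 and 17.4 TPM in CTCF-KD 1 and CTCF-KD 2 (-2.49, SE 0.73, limma adjusted p = 0.585). These Chac1 means rest on few cells. Reads were found in 8, 4, 6 and 5 cells in the same order, and the median cell was at 0 in every culture. A single cell held 50.2%, 45.6%, 71.7% and 47.6% of the summed TPM. Under alternatives that kept every culture, its log2 difference ran from -2.54 to -0.68. Sesn2, a stress-induced leucine sensor, had 51.7 and 39.3 TPM in WT and 29.3 and 0.515 TPM in CTCF-KD (-2.77, SE 1.38, limma adjusted p = 0.698). Its value in CTCF-KD 2 came from 1 cell. Atf4 itself, named after its values were seen, had 434 and 472 TPM in WT and 252 and 259 TPM in CTCF-KD (-0.82, limma adjusted p = 0.610). The synthetase genes known as targets of this response had a median of 0.07. By experiment it was -0.15 and 0.08, and with log2(TPM + 1) averaged over cells it was 0.55.

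Several mitochondrial means rested on single cells. In Aars2, 1 cell held all of the TPM of CTCF-KD 2 (429 TPM), and in Cars2, 1 cell of CTCF-KD 1 had 773 TPM, or 75.2% of that culture's sum. In Sars2, 1 cell of WT 2 had 1001 TPM, or 61.99% of the sum.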
